A study of Mus musculus with 12 samples.

Results

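The comparison described here set macrophages that lack Tim4 against wild-type macrophages at rest. Its members were 6 of the 12 RNA-seq libraries of the series, namely 3 libraries labelled Tim4KO and 3 labelled WT, chosen by their labels as untreated. All came from large peritoneal macrophages of female mice, sorted as F4/80high MHCIIlow cells, and are called Tim4KO naive 1 to 3 and WT naive 1 to 3. The other 6 libraries, called Tim4KO ID8 and WT ID8, were of macrophages that had taken up ZsGreen from ID8ZGO tumour cells, 24 h after these were injected into the peritoneal cavity of mice aged 8 weeks. Neither the allele and strain background of the Tim4KO mice nor the age of the untreated mice is given in the sources used here. Nothing in the labels says that the libraries of a group came from separate animals, so the p-values measure the spread between these libraries, which may be technical. The question was which transcripts differ when the receptor is missing, before any tumour cell has been taken up.

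Tim4, encoded by Timd4, is a cell surface receptor of the TIM family that binds phosphatidylserine, a lipid exposed on the surface of dying cells. Resident macrophages of the peritoneal cavity carry it and use it to tether apoptotic cells, which other receptors then help to engulf. Large peritoneal macrophages depend on the transcription factor GATA6 and on retinoic acid, and clear dead cells, lipid and debris from the cavity.

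Timd4 itself was the check of the labels. It was read at 1178, 1279 and 1489 CPM (counts scaled to a common library size, normalized for library composition) in WT naive 1 to 3, and at 7.71, 7.32 and 7.21 CPM in Tim4KO naive 1 to 3. The 3 Tim4KO libraries lay close together and far below every WT library, with a mean that was 0.564% of the WT mean. The log2 change was -7.47 ± 0.22 (SE, n = 3 per group, edgeR adjusted p = 2.23e-11). The remaining signal was above the counting floor, with 55 to 128 reads per library. The other TIM family genes gave at most 13 reads in any naive library (Havcr1, Havcr2 and Timd2) and were not tested.

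The shallowest naive library, Tim4KO naive 2, held 7358559 counts and the deepest, Tim4KO naive 3, 16446271, so that 3 counts, the lowest level told from 0, stood for 0.169 to 0.399 CPM. The 7 defining markers of large peritoneal macrophages (Adgre1, Gata6, Icam2, Itgam, Csf1r, Lyz2 and Prg4) summed to 52221 to 57785 CPM in WT and 50940.2 to 58200 CPM in Tim4KO libraries, and none was at 0. Adgre1, which encodes the sorted F4/80 antigen, was at 2569 to 3789 CPM in WT and 3067 to 3579 CPM in Tim4KO libraries. The summed markers of other cells overlapped between genotypes in all 9 lists, although single members did not: 14 B cell markers summed to 118 to 129 CPM in WT and 107 to 127 CPM in Tim4KO libraries, and 15 markers of small peritoneal macrophages, monocytes and dendritic cells to 459 to 909 CPM and 435 to 875 CPM. Among those lists Gp1bb was at 0 in all 6 libraries, and Ly6g, Prg2, Prg3, Ear1, Ear6 and Upk1b had at most 3 reads in each. Counts in olfactory and vomeronasal receptor genes, which macrophages are not known to use, summed to 324 to 836 CPM in WT and 267 to 449 CPM in Tim4KO libraries.

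Single libraries stood apart in ways that touch the results below. Tim4KO naive 1 had the highest interferon-response genes. Tim4KO naive 2 and 3 had low levels of genes with short exonic length, ribosomal protein genes and respiratory chain genes, which Tim4KO naive 1 did not share. WT naive 1 had the highest receptor background and the highest share of mitochondrial reads (3.82%, against 1.93 to 2.60% in the other WT and 1.57 to 2.22% in the Tim4KO libraries). Each of these is given below with its values, and their part in the results was not tested unless a value without the library is given.

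Few genes differed beyond the spread of the libraries. Of 15943 genes tested, 7 passed an edgeR adjusted p of 0.05 (0.0439%), 4 of them higher in Tim4KO (0.0251%) and 3 lower (0.0188%). The genes that rose were Dbp, Tef, Rps3a2 and Map3k6, and those that fell were Timd4, Cd5l and Vat1. At an unadjusted p under 0.05 there were 999 genes (6.27%), of which 557 were higher (3.49%) and 442 lower (2.77%). In 2260 genes (14.2%) the 3 Tim4KO libraries lay wholly above (1170 genes, 7.34%) or wholly below (1090 genes, 6.84%) the 3 WT libraries. The calls rested on the full set of libraries: without WT naive 1, 2 or 3 Timd4 was the only gene called, without Tim4KO naive 1, 2 and 3 in turn 5, 3 and 4 of the 7 calls were kept, and without 1 ID8 library 2 to 5 were.

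Cd5l, also called AIM, is a secreted scavenger protein of tissue macrophages that binds lipids and supports macrophage survival. Its level was 1166, 1069 and 1180.01 CPM in WT naive 1 to 3 and 613, 607 and 579 CPM in Tim4KO naive 1 to 3. Every Tim4KO library was near the same level, about 1.90-fold below the WT mean. It fell by 0.93 ± 0.15 on the log2 scale (edgeR adjusted p = 0.0395). In bulk RNA, fewer cells that express a gene and less RNA per cell cannot be told apart. The size of this difference moved little (-0.98 to -0.87 over all alternative fits), but the call was lost whenever 1 naive library was left out. In the ID8 libraries Cd5l overlapped, at 2046 to 2579 CPM in WT and 1484 to 2134 CPM in Tim4KO (log2 change -0.30).

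Vat1 encodes a vesicle membrane protein of the quinone oxidoreductase family. It was at 17.9, 21.4 and 18.7 CPM in WT and at 5.74, 1.33 and 2.03 CPM in Tim4KO naive 1 to 3, where the lowest value rested on 10 reads. The groups did not overlap, and it fell by 2.64 ± 0.38 on the log2 scale (edgeR adjusted p = 0.0428). In the ID8 libraries Vat1 overlapped, with 36.6 to 56.6 CPM in WT and 32.9 to 48.1 CPM in Tim4KO.

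Map3k6, a kinase that can feed the p38 and JNK stress pathways, was at 6.72, 6.14 and 7.19 CPM in WT and 13.1, 16.1 and 12.6 CPM in Tim4KO naive libraries. It rose 2.07-fold (log2 change 1.05 ± 0.17, edgeR adjusted p = 0.0396). The WT ID8 libraries, at 11.1 to 12.3 CPM, were near the Tim4KO ID8 libraries at 10.03 to 12.2 CPM. Rps3a2 is annotated as a processed pseudogene, a copy of a ribosomal protein gene made from spliced RNA. It was at 6.39, 9.68 and 8.03 CPM in WT and 45.4, 27.8 and 20.2 CPM in Tim4KO naive libraries (log2 change 1.94 ± 0.29, edgeR adjusted p = 0.0395). In the ID8 libraries Rps3a2 did not overlap, at 6.91 to 7.56 CPM in WT and 16.3 to 31.7 CPM in Tim4KO (log2 change 1.69). The near-identical parent gene Rps3a1 had a log2 change of -0.32, so reads may have been split between the 2 copies and the level of Rps3a2 is uncertain.

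**Figure D1:**
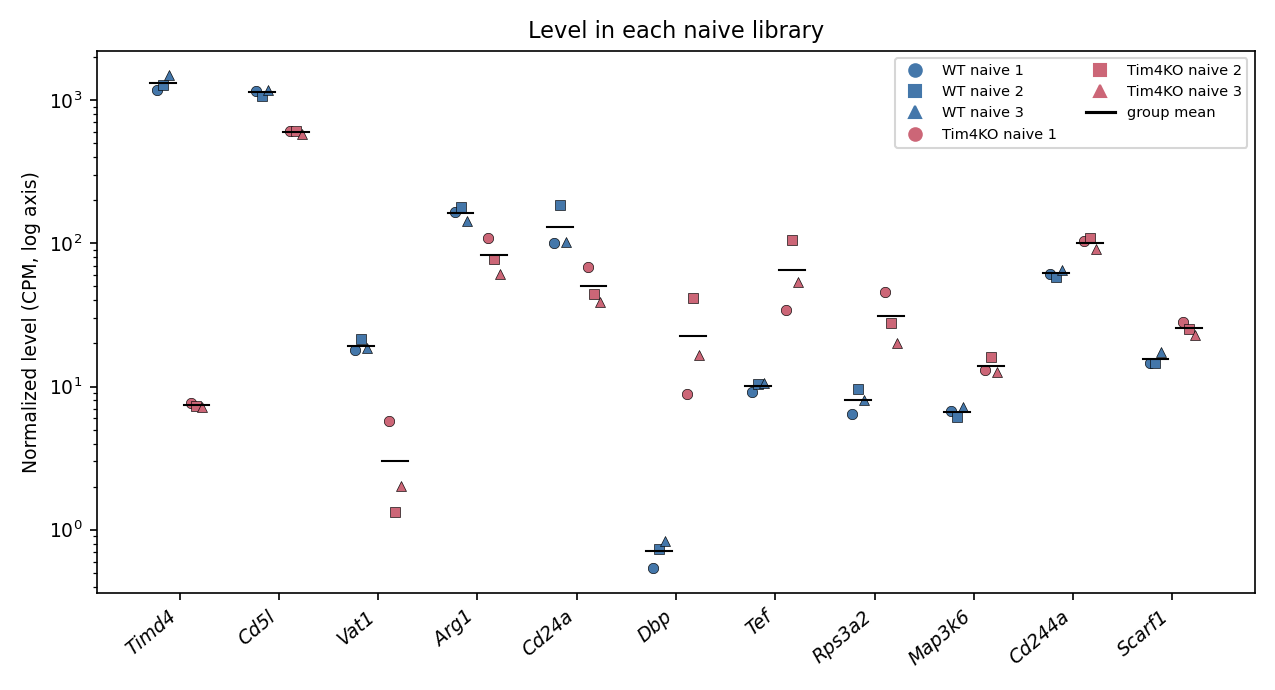
Normalized level (CPM, log axis) of 11 genes in each of the 6 naive libraries, with WT in blue, Tim4KO in red, the replicate number as the marker shape and a bar at the group mean. Cd5l sits at 579 to 613 CPM in Tim4KO against 1069 to 1180.01 CPM in WT, Timd4 falls to 7.21 to 7.71 CPM, and Dbp and Tef spread more widely among the Tim4KO than among the WT libraries.

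Dbp and Tef encode related transcription factors of the PAR bZIP family, whose transcripts cycle over the day in many tissues. Dbp was at 0.542, 0.735 and 0.838 CPM in WT, on 5 to 12 reads, and at 8.94, 41.5 and 16.7 CPM in Tim4KO naive 1 to 3 (log2 change 4.93 ± 0.55, edgeR adjusted p = 0.00616). Tef was at 9.10, 10.5 and 10.6 CPM in WT and 34.4, 106 and 53.6 CPM in Tim4KO naive 1 to 3 (log2 change 2.67 ± 0.33, edgeR adjusted p = 0.0209). Tim4KO naive 2 was the highest library for both. In the ID8 libraries neither overlapped between genotypes. Dbp was called there too (log2 change 4.39, edgeR adjusted p = 0.0245), at 3.97 to 6.38 CPM in Tim4KO and 0.0859 to 0.319 CPM, near the counting floor, in WT. Tef was at 7.48 to 10.9 CPM in WT ID8 and 34.9 to 35.4 CPM in Tim4KO ID8 libraries (log2 change 1.85, edgeR adjusted p = 0.0802). Of 21 tested genes of the clock and its output, 10 had an unadjusted p under 0.05 (47.6%), 8 higher and 2 lower, and 8 to 11 did when each naive library was left out in turn. Beside the called pair, the repressors Per1 (log2 change 1.82), Per2 (2.28), Per3 (2.20), Nr1d1 (2.56) and Nr1d2 (1.78) were higher, and Arntl, the activator that partners CLOCK, was lower (-1.02). The time of day of collection is not given in the sources used here.

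Clock proteins act on short promoter motifs, the E-box bound by CLOCK and its partner and the D-box bound by DBP and TEF. Both motifs were searched on both strands of the RefSeq promoters of build GRCm38.p6, which run over 300.0 bases around each start. The letters were CACGTG for the E-box and TTATGTAA or TTATGCAA for the D-box, and the 2 motifs do not overlap each other here. Of 32851 promoters, 7.15% held the E-box and 1.66% the D-box. The windows searched gene by gene were those of Tef, Per1, Per3, Dbp, Nr1d1, Nr1d2, Arntl, Ciart, Cd5l, Timd4, Vat1 and Map3k6. Shown are those of the 3 most clearly separated clock genes that had a match, at their first start, with the matches in capitals. Tef is at chr15:81802423-81802722 on the plus strand for the first of its 2 starts, Per1 at chr11:69098699-69098998 on the plus strand for the first of its 2 starts, and Per3 at chr4:151044616-151044915 on the minus strand.
Tef: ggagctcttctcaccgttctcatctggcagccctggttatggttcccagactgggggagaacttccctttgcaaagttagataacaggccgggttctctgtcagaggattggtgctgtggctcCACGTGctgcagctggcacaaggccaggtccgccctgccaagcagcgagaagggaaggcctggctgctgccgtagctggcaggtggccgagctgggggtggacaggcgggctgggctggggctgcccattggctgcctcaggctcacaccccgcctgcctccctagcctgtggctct
Per1: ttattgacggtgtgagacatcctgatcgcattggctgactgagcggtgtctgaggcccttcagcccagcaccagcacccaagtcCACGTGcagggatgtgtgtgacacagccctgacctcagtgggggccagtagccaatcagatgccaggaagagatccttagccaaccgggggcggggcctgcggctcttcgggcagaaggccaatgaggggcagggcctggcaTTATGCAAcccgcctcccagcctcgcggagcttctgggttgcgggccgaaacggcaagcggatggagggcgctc
Per3: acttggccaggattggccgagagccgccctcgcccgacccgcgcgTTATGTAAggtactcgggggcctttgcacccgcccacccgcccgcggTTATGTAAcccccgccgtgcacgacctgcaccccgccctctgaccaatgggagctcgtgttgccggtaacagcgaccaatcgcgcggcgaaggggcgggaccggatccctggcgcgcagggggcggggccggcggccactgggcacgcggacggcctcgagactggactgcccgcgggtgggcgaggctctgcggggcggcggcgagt
The Tef promoter held 1 E-box, as did that of its second start, the Per1 promoter 1 E-box and 1 D-box, and the Per3 promoter 2 D-boxes. The window of Ciart, a clock repressor whose level overlapped between genotypes (log2 change 0.81, edgeR adjusted p = 0.898), held 3 E-boxes. No match lay in the windows of Dbp, Nr1d1, Nr1d2, Arntl, Cd5l, Timd4, Vat1 or Map3k6, or at the second start of Per1. A match is a string of letters and was not tested for binding.

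Beyond the called genes, those with the clearest separation were taken by a rule: no overlap between groups, a mean of at least 50 normalized counts, and the smallest p, 12 in each direction. The higher genes were Dbp, Tef, Map3k6, Per3, Cd244a, Scarf1, Gprc5b, Per1, Tmem104, Dnah12, Oas2 and Syvn1. The lower genes were Timd4, Cd5l, Vat1, Cd24a, Colca2, Dpysl3, Bcl2a1b, Fn3krp, Msh3, Wdfy1, Klhl13 and Gimap9. Of these 24, 18 did not pass the adjusted test in edgeR and are given as values, and DESeq2 called 17 of the 18. Exons of Dbp, Tef, Vat1, Colca2, Gprc5b, Syvn1, Msh3 and Wdfy1 overlap a gene on the other strand, and Bcl2a1b belongs to a family of near-identical copies. Among other genes described here the same overlap holds for Arntl, Nr1d1, Jun, Zfp36, Bhlhe41, Il6ra, Il4ra, Mmp19, Pdia6, Dnajb9, Eif2ak3, Hsp90b1, Cox4i1, Nlrc5, Pltp, Ftl1, Slc11a2, Elovl6, Dock2, Gata6, Csf1r and Prg4. Genes whose exons overlap another gene on the same strand include Klhl13, Bcl2a1b, Trf, Tgfbr3 and mt-Atp8. How the counting treated strand and shared reads is not given in the sources used here, so the levels of these genes are uncertain.

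Cd244a encodes 2B4, a SLAM family receptor best known on natural killer cells. It was at 61.5, 58.3 and 65.5 CPM in WT and at 103, 108 and 92.0 CPM in Tim4KO naive libraries (log2 change 0.71 ± 0.13, edgeR adjusted p = 0.0978). The 14 summed markers of T and NK cells, 5 of them at levels that were tested, were at 8.75 to 11.7 CPM in WT and 5.19 to 9.18 CPM in Tim4KO libraries. The part of NK cell RNA in the level of Cd244a was not tested. Cd24a encodes a glycoprotein ligand that engages inhibitory Siglec receptors. It was at 101, 186 and 102 CPM in WT and at 68.6, 44.5 and 39.1 CPM in Tim4KO naive libraries (log2 change -1.35 ± 0.26, edgeR adjusted p = 0.190). B cells can share Cd24a. Of 9 tested B cell markers 8 had a log2 change below 0, and Ighm, the heavy chain of IgM, was lower at an unadjusted p under 0.05, at 8.12, 6.28 and 6.22 CPM in WT and 5.17, 3.06 and 2.08 CPM in Tim4KO naive libraries (means of 6.87 and 3.44 CPM, edgeR adjusted p = 0.662). The summed B cell level given above was mostly Bank1, at 100.2 ± 7.93 CPM in WT and 102 ± 10.6 CPM in Tim4KO libraries (SD, n = 3). The part of B cell RNA in the level of Cd24a was not tested. Wdfy1, an endosomal adaptor linked to Toll-like receptor signalling, was at 47.9, 47.9 and 48.9 CPM in WT and at 9.18, 25.6 and 26.0 CPM in Tim4KO naive libraries. Its WT libraries were nearly equal and its lowest value was in Tim4KO naive 1.

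The ID8 libraries give the same genotype contrast in libraries that the naive comparison did not use, although both share the fitted spread. Of the 24 genes, 21 had the same sign there (87.5%), and 15 also had an unadjusted p under 0.05 in that comparison, all in the naive direction. Over all tested genes 51.8% had the same sign. Called in the ID8 comparison were 9 genes in edgeR (0.0565%), and 12.1% of genes had an unadjusted p under 0.05 in the ID8 comparison. Among the 855 genes with an unadjusted p under 0.05 in naive cells and a mean of at least 50 normalized counts, 67.0% had the same sign. At an unadjusted p under 0.05 in ID8 cells were 145 in the same and 20 in the opposite direction. Over all 10118 genes at that count level, 54.8% had the same sign, with 921 and 576 at that threshold. Across those 855 genes, Timd4 included, the 2 log2 changes correlated at Pearson r = 0.70 and Spearman rho = 0.40, and over all 10118 genes at that level at 0.26 and 0.14. These are correlations across genes, which are not independent replicates.

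Genes that stood at similar differences in both states included Fn3krp (log2 change -0.94 in naive and -0.94 in ID8 cells), a kinase that repairs glycated proteins, Wdfy1 (-1.26 and -1.13), Gimap9 (-0.73 and -0.69), Dnah12 (0.93 and 0.78) and Syvn1 (0.55 and 0.43). Tdo2, which degrades tryptophan, was at -1.26 in naive cells and, with an edgeR adjusted p of 0.0233, fell by 2.22 on the log2 scale in ID8 cells. Genes whose difference was seen in naive cells and lay near 0 in ID8 cells included Vat1, Map3k6, Gprc5b (0.72 and 0.05) and Tmem104 (0.62 and 0.10), while Cd244a (0.71 and -0.19) and Oas2 (0.95 and -0.19) had opposite signs. The test of the difference between the states called 0 genes in edgeR, with 1186 genes at an unadjusted p under 0.05 (7.44%). DESeq2 called 11 and limma voom 0. The smallest p of that test belonged to Timd4, which was at 1.38 to 1.92 CPM in the Tim4KO ID8 libraries (log2 change -9.40, edgeR adjusted p of the difference 0.0888).

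**Figure D2:**
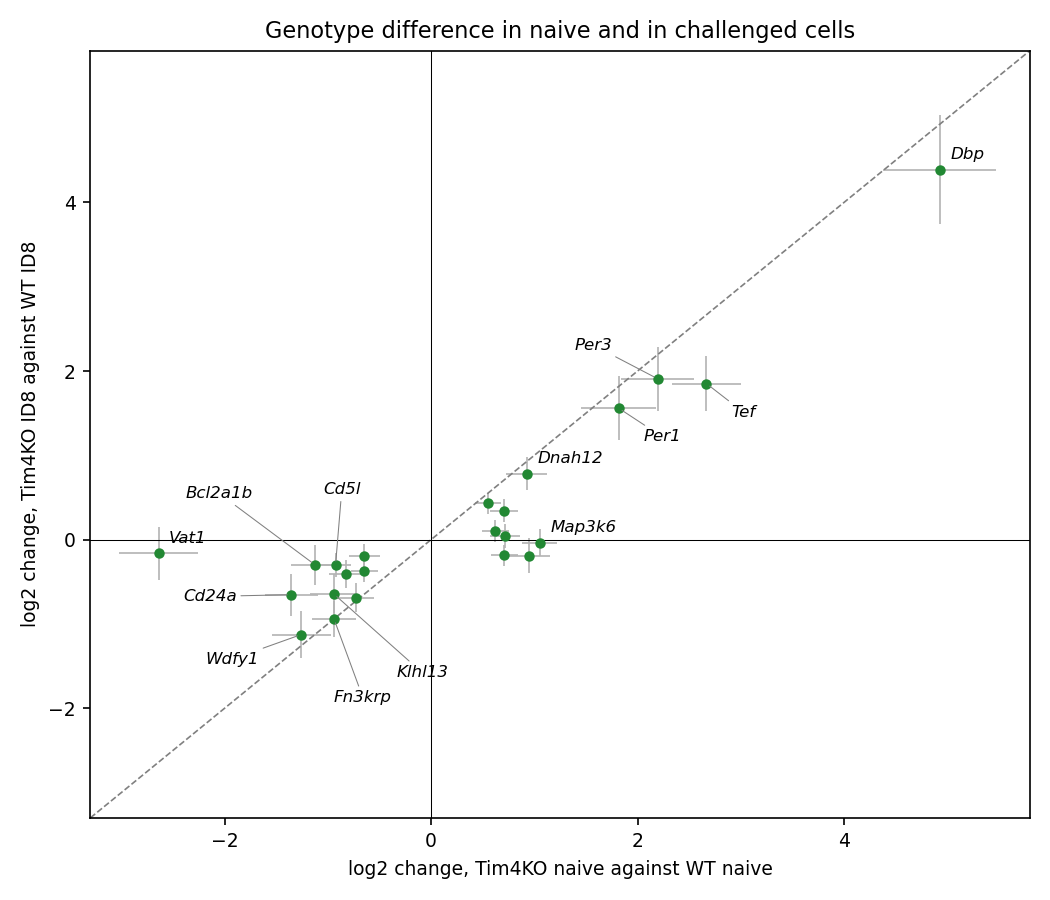
The genotype difference (log2 change, Tim4KO against WT) in naive cells on the horizontal axis against that in ID8 cells on the vertical axis for 23 of the 24 genes, without Timd4, with SE bars and a dashed line of equality. Dbp, Per3, Per1, Dnah12 and Fn3krp lie near the line, while Vat1 and Map3k6 lie near 0 on the vertical axis.

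Gene families were described from 49 lists of 1194 distinct tested genes. Of these, 4 genes were called (Timd4, Cd5l, Dbp and Tef), and 143 had an unadjusted p under 0.05 (11.98%), 61 higher and 82 lower. Over all tested genes that share was 6.27%, with 3.49% higher and 2.77% lower. Among the 10118 genes with a mean of at least 50 normalized counts, 855 were at that threshold. The lists were chosen with earlier results of these data known, so these shares are no test of the lists. Of the lower members, 21 were ribosomal, 15 oxidative phosphorylation and 8 mitochondrially encoded genes, which are described below. Unless a gene is said to have risen or fallen, the list members below did not pass the adjusted test in edgeR, with adjusted p-values of at least 0.178 in naive cells for those not yet described. DESeq2 called Scarf1, Arg1, Oas2, Syvn1, Fkbp5, Jun, Cd200r1 and mt-Atp8 among them.

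Among 26 tested phosphatidylserine receptors and the molecules that bridge or signal from them, Timd4 fell and the median log2 change was 0.06. Mertk, the receptor kinase that engulfs apoptotic cells through bridging proteins, was the only other member at an unadjusted p under 0.05. It was at 141, 148 and 160.4 CPM in WT and 169, 216 and 166 CPM in Tim4KO naive libraries (log2 change 0.29 ± 0.12, edgeR adjusted p = 0.752). The Tim4KO libraries lay above the WT libraries, and Tim4KO naive 3 by only a few CPM. Its ligand protein S (Pros1) was at 723 to 856 CPM in WT and 889.6 to 1057 CPM in Tim4KO libraries. The engulfment adaptor Dock2 was at 447 to 519.6 CPM and 541 to 577 CPM. Groups did not overlap for 4 of the 26 genes, 3 higher and Timd4 lower, a share near the 14.2% of all tested genes. In ID8 cells Mertk overlapped, with a log2 change of -0.0066.

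Scavenger receptors were represented by 15 tested genes with a median log2 change of -0.0045. Beside Cd5l, Scarf1, a receptor for modified lipoproteins and for complement-coated dying cells, was at 14.6, 14.7 and 17.4 CPM in WT and 28.3, 25.2 and 22.9 CPM in Tim4KO naive libraries (log2 change 0.71 ± 0.14, edgeR adjusted p = 0.178), and at 0.35 in ID8 cells. Msr1, the class A scavenger receptor, did not overlap between groups (1529 to 1629.6 CPM in WT, 1734 to 1862 CPM in Tim4KO) with an unadjusted edgeR p of 0.433. Among 23 C-type lectins, Clec7a, the beta-glucan receptor Dectin-1, was at 169.9 to 217 CPM in WT and 117 to 162 CPM in Tim4KO libraries (log2 change -0.39). Trem2, a lipid receptor of tissue macrophages, was at 33.2 to 43.8 CPM in WT and 24.2 to 30.6 CPM in Tim4KO libraries (-0.45), and at 0.28 in ID8 cells. Of 21 integrins, Itga5, the fibronectin receptor chain, was at 23.7, 22.97 and 23.2 CPM in WT and 35.1, 32.8 and 30.2 CPM in Tim4KO naive libraries (0.49 ± 0.12, edgeR adjusted p = 0.367).

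The identity of the cells was read from 23 genes of large peritoneal macrophages, of which 0 were called and 2 were lower at an unadjusted p under 0.05 in edgeR, Apoc1 (log2 change -0.77) and Garnl3 (-0.37). Gata6, the factor that defines these cells, was at 120.2, 189 and 167 CPM in WT and 147, 132 and 129 CPM in Tim4KO naive libraries (-0.22). The groups overlapped. The chemokine Cxcl13 was at 1325, 2289 and 3052 CPM in WT and 3696, 3893 and 4195 CPM in Tim4KO naive libraries. All Tim4KO libraries lay above all WT libraries, with a log2 change of 0.82 ± 0.44 that was not called. Of 29 transcription factors, 3 were higher at an unadjusted p under 0.05: Smad3 of TGF-beta signalling (61.2 to 88.6 CPM in WT, 95.7 to 106 CPM in Tim4KO), Bhlhe41 (3.94 to 6.01 and 6.40 to 13.4 CPM) and the glucocorticoid-induced Klf9 (0.56 on the log2 scale, groups overlapping). Receptors of cytokines and growth factors gave 5 of 30 at an unadjusted p under 0.05, all higher, among them Il6ra (0.47) and its signalling partner Il6st (0.45), Il17ra (0.38) and Il4ra (0.40). The count was 3, 2 and 4 without Tim4KO naive 1, 2 and 3 in turn, with 1 of the 4 lower, and 2, 2 and 5 without WT naive 1, 2 and 3. It was 2 with the length trend taken out.

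Arg1, the arginase that splits arginine and a marker of alternative activation, was at 165, 179 and 143 CPM in WT and 109, 77.5 and 60.7 CPM in Tim4KO naive libraries. All Tim4KO libraries were lower, with a log2 change of -0.98 ± 0.24 (edgeR adjusted p = 0.360) in naive and -1.17 in ID8 cells (edgeR adjusted p = 0.0932). Of 16 genes of alternative activation it was the only one whose groups did not overlap, a share below the 14.2% of all tested genes.

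Among secreted proteins, 24 complement genes had a median log2 change of 0.05, with C4b, a component of the classical pathway, at 0.31. F7, the coagulation factor that starts the tissue factor pathway, was at 64.4, 63.1 and 59.3 CPM in WT and 101, 81.1 and 98.1 CPM in Tim4KO naive libraries (0.59 ± 0.14, edgeR adjusted p = 0.353), and at 0.47 in ID8 cells. The 26 matrix genes had a median log2 change of -0.02, with 15 below 0. Of the 26, 4 were higher at an unadjusted p under 0.05: the laminin chain Lamc1 (0.61), the metalloproteinases Mmp9 (0.69) and Mmp19 (0.49), and Adam9 (0.31). Leaving out Tim4KO naive 1, 2 and 3 in turn gave 5, 4 and 2 members, with 2 of the 4 lower, and leaving out WT naive 1, 2 and 3 gave 1, 5 and 3. None of 20 chemokines, 19 growth and repair factors or 28 NF-kB targets reached an unadjusted p under 0.05 in edgeR, and at most 1 member of each did in DESeq2 or limma voom. Without Tim4KO naive 1, 4 of the NF-kB targets did in edgeR.

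Interferon-response genes were high in 1 library. The median level of 38 type I interferon-stimulated genes, as the log2 difference from the WT mean, was 0.02, -0.18 and 0.16 in WT naive 1 to 3 and 1.22, 0.02 and -0.10 in Tim4KO naive 1 to 3. The list's median log2 change was 0.48, with 36 of 38 members above 0 and 6 higher at an unadjusted p under 0.05 in edgeR, among them Stat2 and Xaf1. Without Tim4KO naive 1 the median was -0.03, with 15 members above 0, and 1 higher against 3 lower at an unadjusted p under 0.05. The count of higher members was 14 without Tim4KO naive 3, 2 without WT naive 1 or 2, and 3 with the length trend of each library taken out. The 18 guanylate-binding proteins and immunity-related GTPases, which attack vacuoles of intracellular microbes, stood at 0.37, -0.31 and -0.10 in WT and 1.37, 0.14 and -0.20 in Tim4KO naive 1 to 3. Their median was 0.70 with 0 members at an unadjusted p under 0.05 in edgeR and 1 each in DESeq2 and limma voom, and 0.06 without Tim4KO naive 1. In edgeR 7 members were higher at that threshold without Tim4KO naive 3, and 2 without WT naive 1 or Tim4KO naive 2. Iigp1 shows the spread, with 55.9, 14.2 and 25.1 CPM in WT and 299, 42.9 and 21.2 CPM in Tim4KO naive 1 to 3. Oas2, which senses double-stranded RNA, was high in each Tim4KO library, at 35.5, 36.7 and 52.3 CPM in WT and 96.2, 73.1 and 71.3 CPM in Tim4KO (log2 change 0.95 ± 0.21, edgeR adjusted p = 0.261).

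**Figure D3:**
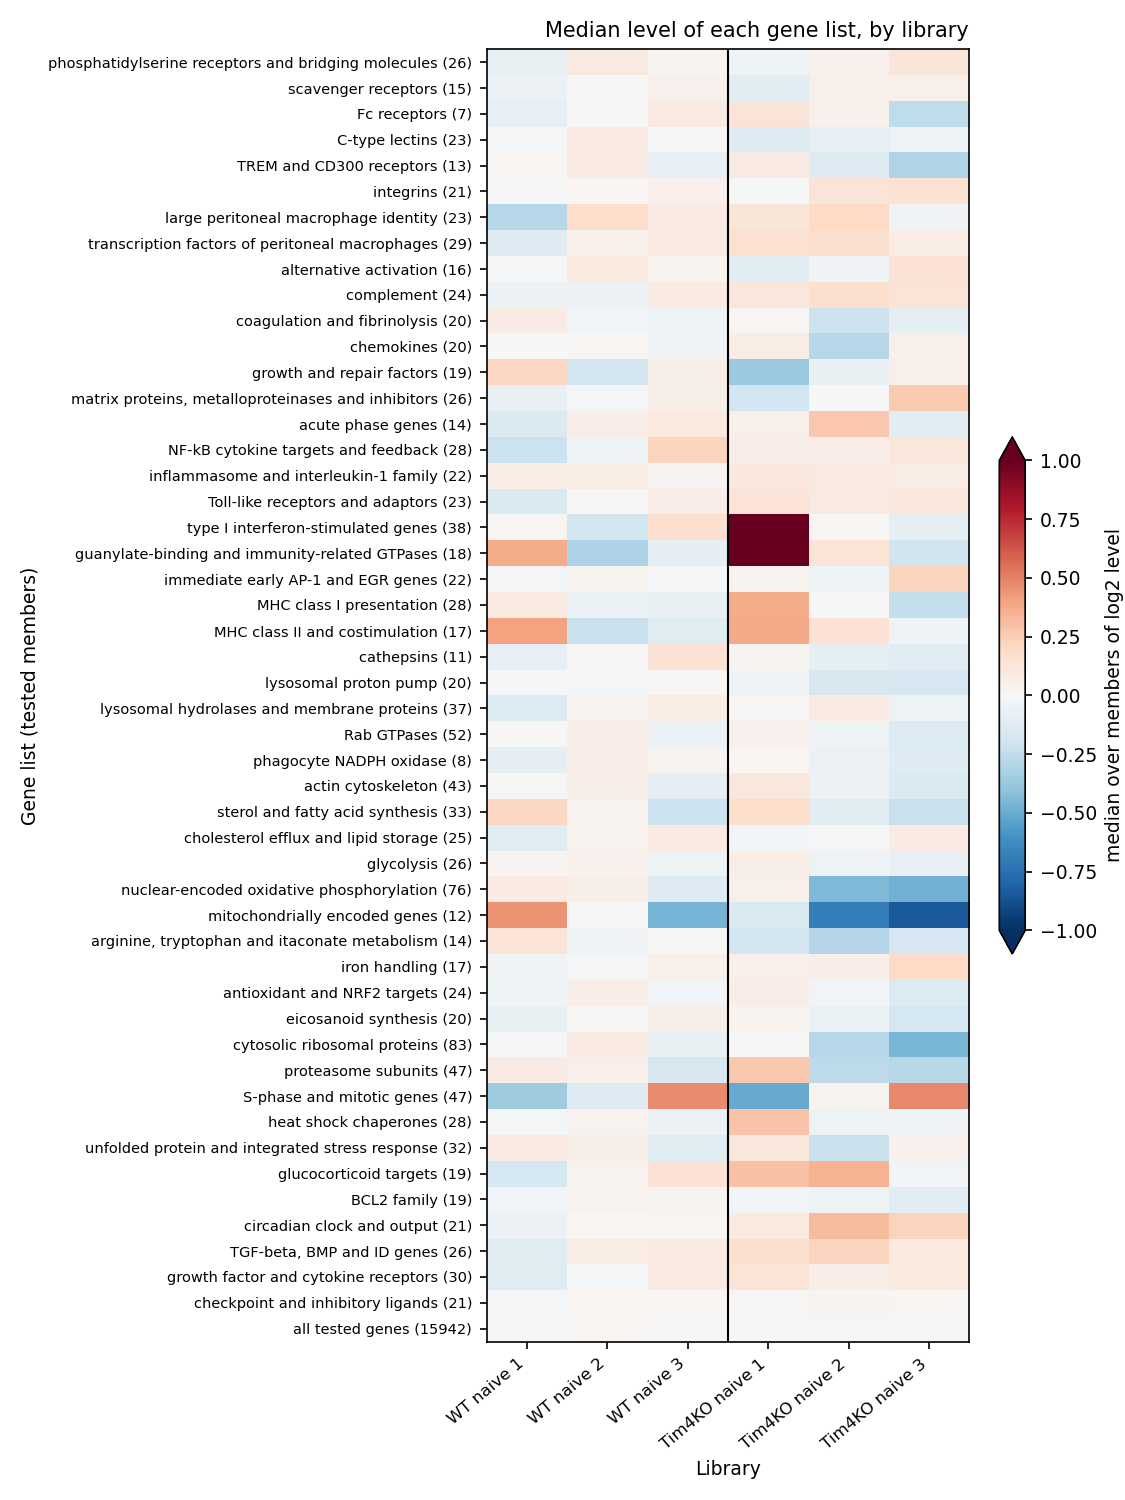
Median level of the tested members of each of 49 gene lists in each naive library, as a log2 difference from the WT naive mean (colour, from -1 to 1 with larger values in the end colours). The bottom row is all tested genes, with 15942 distinct names. The number of members is in brackets. The interferon lists are high in Tim4KO naive 1, at 1.22 and 1.37, and the respiratory chain and ribosomal lists are low in Tim4KO naive 2 and 3.

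Ribosomal and respiratory chain genes were lower in 2 of the 3 Tim4KO libraries. Of 83 cytosolic ribosomal protein genes, 80 had a log2 change below 0 and 21 were lower at an unadjusted p under 0.05 in edgeR (25.3%), with a median of -0.24. Their median level was -0.02, 0.08 and -0.07 in WT and 0.00, -0.29 and -0.46 in Tim4KO naive 1 to 3. Of 76 nuclear genes of oxidative phosphorylation, 75 were below 0 and 15 lower at an unadjusted p under 0.05 (19.7%), with a median of -0.26 and levels of 0.05, -0.44 and -0.48 in Tim4KO naive 1 to 3. Cox4i1, a nuclear-encoded subunit of cytochrome oxidase, was at 196, 189 and 179 CPM in WT and 163, 135 and 126 CPM in Tim4KO naive libraries. The 12 tested mitochondrially encoded genes had a median of -0.59, with 8 lower at an unadjusted p under 0.05, and both WT naive 1 (0.45) and WT naive 3 (-0.47) departed from the WT mean. In edgeR over all libraries none of these genes was called, while DESeq2 called mt-Atp8, a subunit of the ATP synthase. It was at 2.06, 8.08 and 4.61 CPM in WT and 1.07, 0.133 and 0.676 CPM in Tim4KO naive 1 to 3, where it had 13, 1 and 12 reads. Its exons overlap those of mt-Atp6 on the same strand, so its level is uncertain.

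The 2 Tim4KO libraries that differed also differed by the exonic length of the genes, taken as the merged exons of all annotated transcripts. The median log2 change of protein-coding genes was -0.23 for 124 genes with under 1 kb of exon, -0.11, -0.02 and 0.06 for the classes between, and 0.12 for 1900.0 genes of 8 kb or more. The shortest class stood at -0.43 and -0.40 in Tim4KO naive 2 and 3 and at 0.07 in Tim4KO naive 1. The ribosomal and oxidative phosphorylation genes had median exonic lengths of 1770.0 and 1778.5 bases. Merged exons can be longer than the transcript that a cell makes. Whether the trend by this length covers that by transcript length was not tested. When each library's trend with length was taken out, the medians were -0.16 for ribosomal, -0.18 for oxidative phosphorylation and -0.44 for mitochondrially encoded genes. Members lower at an unadjusted p under 0.05 were then 19, 14 and 2, against 21, 15 and 8. These counts hung on single libraries of both genotypes. The ribosomal count was 58, 1 and 2 without Tim4KO naive 1, 2 and 3 in turn, and 9, 2 and 14 without WT naive 1, 2 and 3. The oxidative phosphorylation count was 62, 1 and 0 in the former fits and 2, 2 and 20 in the latter. The mitochondrially encoded count was 8, 1 and 1 in the former and 2, 4 and 10 in the latter, and without WT naive 1 the median of those genes was -0.29. Why the libraries differ was not tested.

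**Figure D4:**
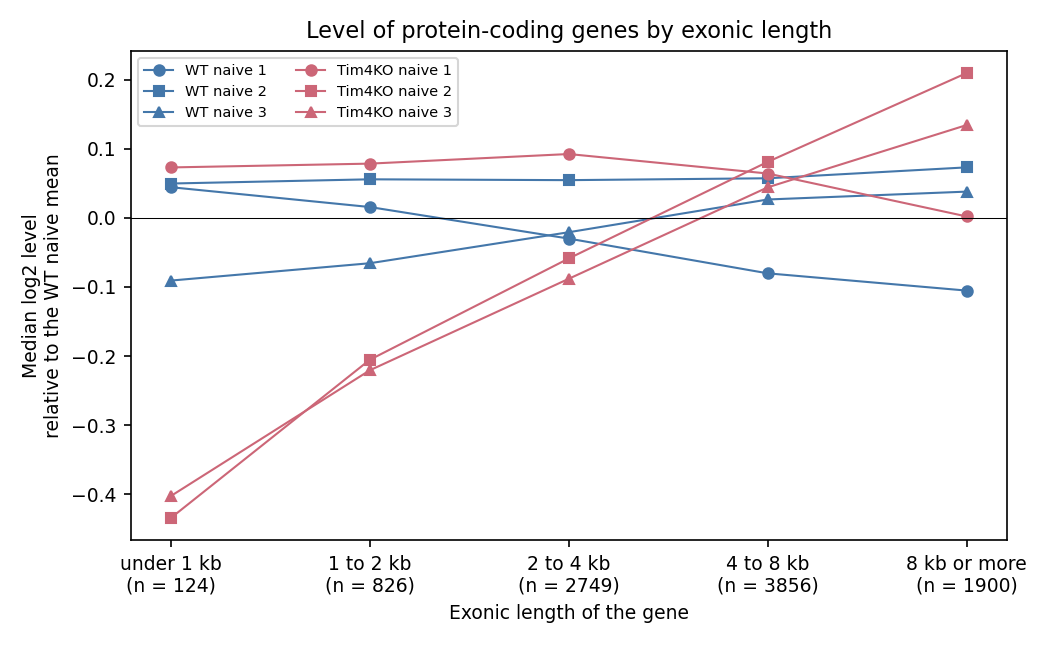
Median log2 level relative to the WT naive mean (vertical axis) for protein-coding genes in 5 classes of exonic length (horizontal axis), 1 line per naive library. Tim4KO naive 2 and 3 run from -0.43 and -0.40 in the shortest class to the highest values in the longest, while Tim4KO naive 1 and the WT libraries stay within 0.11 of 0.

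In the phagosome and lysosome lists, 16 of 20 subunits of the lysosomal proton pump had a log2 change below 0, with 2 at an unadjusted p under 0.05 (Atp6v1f at -0.36 and Atp6v1c1 at -0.28), and 0 without WT naive 2, Tim4KO naive 2 or Tim4KO naive 3. The list's median level was -0.02 to 0.01 in WT and -0.04, -0.16 and -0.17 in Tim4KO naive 1 to 3, again lowest in the libraries low in genes of short exonic length. The 37 lysosomal hydrolases and membrane proteins had a median of -0.0034, with Cd63 lower at 89.6 to 101 CPM against 123.4 to 140.8 CPM in WT. Of 43 actin cytoskeleton genes, Tmsb4x (-0.45), Arpc3 (-0.33) and Vim (-0.35) were lower and the crosslinker Flna (0.32) higher at an unadjusted p under 0.05. That count was 7, all lower, without Tim4KO naive 1 and 0 without Tim4KO naive 3. The 8 genes of the NADPH oxidase, which makes superoxide in phagosomes, gave 0 members at that threshold in edgeR, DESeq2 and limma voom.

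Lipid genes lay on both sides. Lpl, the lipase that frees fatty acids from triglyceride-rich lipoproteins, was at 905, 804 and 869 CPM in WT and 581, 353 and 443 CPM in Tim4KO naive libraries. The groups were well apart, but the SE, from the fit to all 12 libraries, was wide (log2 change -0.90 ± 0.38, edgeR adjusted p = 0.778). Lpl was at 820, 776 and 237 CPM in WT ID8 1 to 3. It was called in edgeR without WT ID8 3, and in no other fit that left out 1 library. Pltp, which transfers phospholipid between lipoproteins, was at 450.2 to 528 CPM in WT and 573 to 703 CPM in Tim4KO libraries (0.39), with 0.74 in ID8 cells. The 33 tested genes of sterol and fatty acid synthesis had a median log2 change of 0.02, and of -0.26 without Tim4KO naive 1. The fatty acid elongase Elovl6 was at 4.66, 5.21 and 5.31 CPM in WT and 2.95, 1.73 and 2.70 CPM in Tim4KO naive libraries (-1.01 ± 0.30, edgeR adjusted p = 0.565). Of 17 iron genes, 4 were at an unadjusted p under 0.05: the transporter Slc11a2 (0.56), the reductase Steap3 (0.40) and transferrin (Trf, 0.32) were higher, and the ferritin light chain Ftl1 (-0.32) was lower. The count was 3, 2 and 4 without Tim4KO naive 1, 2 and 3 in turn, and 2, 2 and 5 without WT naive 1, 2 and 3. Trf was at 7199.7 to 8816 CPM in WT and 9400.3 to 11436 CPM in Tim4KO libraries.

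Stress genes of the endoplasmic reticulum lay on both sides. Of 32 tested, 9 had an unadjusted p under 0.05 in edgeR (28.1%), 5 higher and 4 lower. The higher members included components of the degradation machinery for misfolded proteins: the ubiquitin ligase Syvn1 was at 28.7, 33.9 and 32.1 CPM in WT and 47.9, 42.7 and 48.2 CPM in Tim4KO naive libraries (log2 change 0.55 ± 0.12, edgeR adjusted p = 0.261), and its partner Herpud1 at 61.7, 76.1 and 89.3 CPM and 143, 135 and 107 CPM (0.76 ± 0.19). The co-chaperone Dnajb9 (0.43) and the sensor kinase PERK (Eif2ak3, 0.44) were higher too. The folding helpers Pdia6 (-0.44), Sdf2l1 (-0.64), Calr (-0.41) and Hsp90b1 (-0.31) were lower. In ID8 cells Syvn1, Herpud1 and Dnajb9 were at 0.43, 0.74 and 0.52. The count was 3, all higher, without Tim4KO naive 2, and 4, with 1 lower, without WT naive 1.

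Glucocorticoid targets gave 6 of 19 at an unadjusted p under 0.05 (31.6%), all higher, and 4 to 7 when each naive library was left out in turn, the 4 being without WT naive 1 and with 1 lower. Of the 6, Per1 was also counted among the clock genes above. Tgfbr3 and Zfp36 were also counted in the lists of TGF-beta and of immediate early genes. Fkbp5, a co-chaperone of the glucocorticoid receptor, was at 7.69, 6.48 and 8.52 CPM in WT and 22.4, 67.1 and 19.4 CPM in Tim4KO naive 1 to 3 (log2 change 2.24 ± 0.45, edgeR adjusted p = 0.261). Tim4KO naive 2 was highest for Fkbp5, as it was for Dbp, Tef and Per1. In ID8 cells Fkbp5 was at -0.48. Tsc22d3, another target, overlapped widely (139, 222 and 448 CPM in WT, 591, 811 and 170.1 CPM in Tim4KO). The receptor gene Nr3c1 was at 163 to 201 CPM in WT and 188 to 219 CPM in Tim4KO libraries. Among immediate early genes, Jun was at 38.1, 24.1 and 28.1 CPM in WT and 60.4, 46.5 and 65.1 CPM in Tim4KO naive libraries (0.94 ± 0.22, edgeR adjusted p = 0.353).

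Antigen presentation and checkpoint lists gave few members. Of 28 genes of MHC class I presentation, Calr was lower and the class I activator Nlrc5 (log2 change 0.63) higher at an unadjusted p under 0.05, and without Tim4KO naive 1 there were 6, all lower. None of 17 class II and costimulation genes was at that threshold in edgeR, DESeq2 or limma voom, in cells that were sorted for low MHC class II. Cd200r1, an inhibitory receptor of myeloid cells, was at 66.3, 68.4 and 60.8 CPM in WT and 44.6, 41.1 and 51.4 CPM in Tim4KO naive libraries (-0.51 ± 0.13, edgeR adjusted p = 0.360), and at -0.53 in ID8 cells. The 47 proteasome and 47 S-phase and mitotic genes gave 0 members at an unadjusted p under 0.05 in edgeR, and at most 1 each in DESeq2 or limma voom. Without Tim4KO naive 1 the proteasome count was 20.

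A targeted allele can carry flanking sequence of another strain. Within 10 Mb of Timd4, 122 other genes were tested, of which 0 were called in edgeR and 7 had an unadjusted p under 0.05 (5.74%), 4 higher and 3 lower, close to the 6.27% of all genes. Their log2 changes ran from -4.68 to 1.95. Whether these mice carry such sequence, near Timd4 or elsewhere, was not tested, and a share of differing genes cannot show it.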

How the data were processed

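Per the labels, RNA of the sorted macrophages was isolated by RNeasy micro kit, and the SMART-Seq mRNA LP kit made the libraries. The authors deposited raw counts per Ensembl gene as 1 table of 57010 genes, in which every column matched a library by name (0 unmatched). FastQC, STAR 2.5, mm10 and GRCm39 are named in the submitters' processing notes, without their roles. The counting program and its handling of strand and shared reads are not given in the sources used here. Names and exonic lengths came from GENCODE vM21, which matched 52081 identifiers, and promoters from RefSeq (GRCm38.p6).

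Genes were kept by filterByExpr. The 12 libraries entered 1 quasi-likelihood model of edgeR 4.0.16 (R 4.3.3, TMM factors, robust dispersion) that gave each group its own mean and left 8 residual degrees of freedom. Two-sided F tests gave Tim4KO against WT in naive and in ID8 cells, and their difference. The threshold was 0.05 after Benjamini-Hochberg adjustment. After the main fit, the model was also run on simulated counts with known changes and the same dispersion for every gene. Its outcome is not reported here. SE was derived from F as the absolute log2 change over its square root. Floors of 3 counts cover counting error only, since no molecular identifiers were used. List levels are medians of log2(CPM + 0.5).

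Named were all called genes, the 12 genes per direction described in the text, up to 4 members of each list by p and the defining markers; other genes were chosen after their values were seen, and some genes are not reported here. The members and lists were chosen with earlier results of these data known. Alternatives were DESeq2 1.42.0, limma 3.58.1 voom, other scalings and filters, naive libraries alone, the replicate number as a block, the receptor background as a covariate, each library left out, and, added after seeing the data, a length offset. Replicate pairs differed by more than sampling noise (chi-square per degree of freedom 8.02 to 21.6).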

Additional observations from a re-analysis of the deposited data

Results flagged for a closer look

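Steap3, a reductase that helps release iron from endosomes, differed in opposite directions in the 2 states: all 3 Tim4KO libraries lay above the WT libraries in naive cells (23.5, 27.6 and 28.4 CPM in WT, 36.5, 31.7 and 37.1 CPM in Tim4KO) and below them in ID8 cells. The difference between the 2 log2 changes (0.40 in naive, -0.13 in ID8) was -0.53, with an unadjusted edgeR p of 0.00578 and an adjusted p of 0.668.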

How the results depend on the processing

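The naive comparison called 7 genes, and between 1 and 29 when 1 of the 12 libraries was left out. It fell to 1, Timd4, without any of WT naive 1, 2 or 3, and reached 29 without WT ID8 3. It called 59 genes without a filter on low counts, 52 in DESeq2, 4 in limma voom and 2 (Timd4 and Cd5l) with naive libraries alone. With the replicate number as a block it called 3 genes (Timd4, Dbp and Tef) over 12 libraries and 104 over the naive libraries. Nothing in the labels pairs the numbers: deviations of same-numbered naive libraries from their group means correlated at 0.048, 0.18 and 0.0072, and 3 of the 6 libraries correlated best with their own number. The test of the difference between states called 0 genes, but 73 without a filter, 11 in DESeq2, 2 with the background covariate and 0 to 368 when 1 library was left out, 368 being without WT ID8 3 and 3 without Tim4KO naive 1. The cause was not tested. Of the 7 calls, Timd4 held in all 6 fits without a naive library, Dbp and Tef in 3 each, Rps3a2 in 2, Vat1 in 1, and Cd5l and Map3k6 in 0. No setting moved the median of all genes by over 0.1 on the log2 scale. Signs reversed only for 4 markers whose log2 changes lay near 0: Adgre1 (-0.039 without WT naive 1, and -0.039 to 0.25 over the fits that left out a library), Prg4 (-0.071 without WT naive 1, and -0.071 to 0.19), Icam2 (-0.24 to 0.058, above 0 without Tim4KO naive 2 or 3, and 0.0055 with the length offset) and Lyz2 (-0.11 to 0.0097, above 0 without Tim4KO naive 3, and 0.062 with the length offset). Over 142 named genes, 3093 of 3261 refits kept direction and side of the threshold, 69 lost a call and 92 gained one. Only 7 of the 142 were called in the main fit. Most refits thus had no call to lose, and the share kept does not measure how firm the 7 calls are. With 3 libraries a group, low levels such as Dbp in WT (5 to 12 reads) are imprecise.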

Other observations

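Some genes were nearly on or off between libraries of 1 genotype. Chosen after their values were seen, those with at least 20-fold differences within a naive group and at least 10 CPM in a library numbered 4 in WT and 2 in Tim4KO. Atp7b, a copper transporter, was at 1313 CPM in WT naive 1 and at 0.489 to 1.48 CPM in the other 5 naive libraries. Rspo1, a secreted enhancer of WNT signalling, was at 444, 6.34 and 188 CPM in WT and at 830.2, 947 and 654 CPM in Tim4KO naive libraries, and in ID8 cells at 378 to 1268 CPM in WT and 185 to 277 CPM in Tim4KO. Gm28661 was at 871, 3.61 and 498 CPM in WT naive 1 to 3 and at 671 CPM in WT ID8 3, against at most 3.57 CPM in every other library. Mirt1 was at 4.59, 319 and 6.31 CPM in Tim4KO naive 1 to 3 and at 209 to 815 CPM in the WT naive libraries.

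Dynlt1b, one of several near-identical dynein light chain genes and so of uncertain level, was at 41.2, 0.666 and 37.1 CPM in Tim4KO naive 1 to 3 and at 25.8 to 46.3 CPM in the 3 Tim4KO ID8 libraries, while all 6 WT libraries had at most 0.258 CPM. The gene was thus read in 5 of 6 Tim4KO libraries and lay near the floor in Tim4KO naive 2 (edgeR adjusted p = 0.353 in naive cells). It was called in DESeq2, and in edgeR without Tim4KO naive 2. Tmem215, also chosen after its values were seen, was at 3.79, 5.07 and 4.19 CPM in WT and 0.984, 1.07 and 0.788 CPM in Tim4KO naive libraries (log2 change -2.21, edgeR adjusted p = 0.103, called in DESeq2), and at -0.47 in ID8 cells.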
